A study of Mus musculus with 21 samples.

Results

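The 6 genes described here encode subunits of the NMDA receptor, and they were chosen as the rows named Grin1, Grin2a, Grin2b, Grin2c, Grin2d or Grin3a in the 4 deposited tables of gene expression in cultured mouse cortical neurons. All 6 were present in every table, out of 19399 genes common to the 4 tables and 22040 genes found in any of them. RNA was sequenced from 21 libraries of primary cortical neurons taken from newborn pups and kept with 1 µM AraC, which limits dividing cells. Tau neurons carried the hTau P301S transgene, a human tau cDNA driven by the prion promoter, received 3 µg/mL of pre-formed tau fibrils at day 7 in vitro and were cultured for 18 more days. WT neurons lacked the transgene. The labels describe the fibrils for transgenic neurons, while the study's text can be read as seeding both genotypes, so whether WT neurons received them is unclear. Both genotypes were exposed for 24 h to AdipoRon, a small molecule agonist of the adiponectin receptors, at 10 µM by the sample labels (the deposited protocol gives the same number in mM), or to DMSO, its vehicle. There were 5 libraries of Tau neurons with DMSO, 5 of Tau neurons with AdipoRon, 5 of WT neurons with DMSO and 6 of WT neurons with AdipoRon.

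The NMDA receptor is a glutamate-gated cation channel of excitatory synapses that opens when agonist and co-agonist are bound and the membrane is depolarized, and it then admits calcium. Each channel combines GluN1, which every receptor needs, with GluN2 or GluN3 subunits that set its kinetics, its magnesium block and its partners. In the maturing forebrain GluN2B, encoded by Grin2b, predominates early and GluN2A, encoded by Grin2a, is added later, so the balance of this pair is commonly read as a sign of synaptic maturity.

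Expression is given in log2 CPM, where CPM is the count of a gene per 1000000 reads. The authors deposited it once per table, as a mean over all libraries that entered the table. The 4 tables therefore describe 4 overlapping pools. The DMSO pool held 10 libraries and the AdipoRon pool 11, each with both genotypes, while the Tau pool held 10 libraries and the WT pool 11, each with both treatments. A difference between the AdipoRon and DMSO pools is a mean over genotypes, and a difference between the Tau and WT pools is a mean over treatments. The balance is not exact, since WT neurons with AdipoRon gave 6 libraries and each other group 5. Each difference therefore also holds a small part of the other factor. The response within Tau neurons or within WT neurons cannot be separated in such means. No value per library was used, so the differences have no error and no test, the depth of single libraries was not given in the files used, and a gene was counted as lower or higher only by size, at 0.3 log2 or more.

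The subunit genes are related in sequence, which bears on how far reads can be assigned to one of them. The longest identical runs of coding sequence are shown for the developmental pair, Grin2a with Grin2b, and for the low-level pair, Grin2c with Grin2d. A read longer than such a run cannot match both genes exactly along its whole length. Among other pairs, Grin2b with Grin2c shared a run of 34 bases and Grin2a with Grin2d 28. The runs shown are GENCODE M39 canonical coding sequences, 5′ to 3′, of 24 bases for Grin2a with Grin2b and 32 bases for Grin2c with Grin2d.
Grin2a and Grin2b: agtgacaagaagttccagagacct
Grin2c and Grin2d: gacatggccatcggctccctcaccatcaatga
Grin1 shared no coding run longer than 14 bases with another subunit gene.

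The RefSeq promoter of Grin1, 250 bases before to 50 bases after the gene start on GRCm38.p6, is shown as that of the obligatory subunit. Capitals mark GC boxes, the letters GGGCGG on either strand, overlapping runs included.
Grin1, chr2:25319138-25319437, minus strand: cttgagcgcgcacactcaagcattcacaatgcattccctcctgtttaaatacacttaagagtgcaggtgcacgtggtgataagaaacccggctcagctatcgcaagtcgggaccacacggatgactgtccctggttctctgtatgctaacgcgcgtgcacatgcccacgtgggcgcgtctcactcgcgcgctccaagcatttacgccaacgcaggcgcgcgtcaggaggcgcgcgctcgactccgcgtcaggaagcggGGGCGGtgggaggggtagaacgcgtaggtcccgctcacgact
The Grin1 promoter held 1 GC box and 60.7% G or C bases. Of 27025 mouse promoters of the same length, 35.9% held at least 1 GC box. The E-box CACGTG was present 2 times in the Grin1 promoter and in 7.24% of all promoters.

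Grin1 encodes GluN1, the obligatory subunit that binds the co-agonists glycine and D-serine. Its gene lies at chr2:25291177-25319187 (GRCm38.p6), and 7403 bases of it overlap the antisense gene Grin1os. The level of Grin1 was 8.18 log2 CPM in the DMSO pool, 7.91 in the AdipoRon pool, 8.09 in the Tau pool and 8.02 in the WT pool. In linear terms these were 289.8, 240.4, 272.6 and 258.7 CPM, a level above that of at least 96.8% of the genes in each table. The AdipoRon pool was thus lowest, 0.27 log2 or 17.1% below the DMSO pool, and 13.9% of 19693 genes were as low or lower in that comparison. The Tau pool was 0.08 log2 above the WT pool. Grin1os was far less abundant, at 1.76 log2 CPM in the DMSO pool and 2.11 in the AdipoRon pool, a difference of 0.35 in the other direction. Reads of the overlapping genes may not be told apart, since no strand setting of the counting was given in the sources used here.

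**Figure D1:**
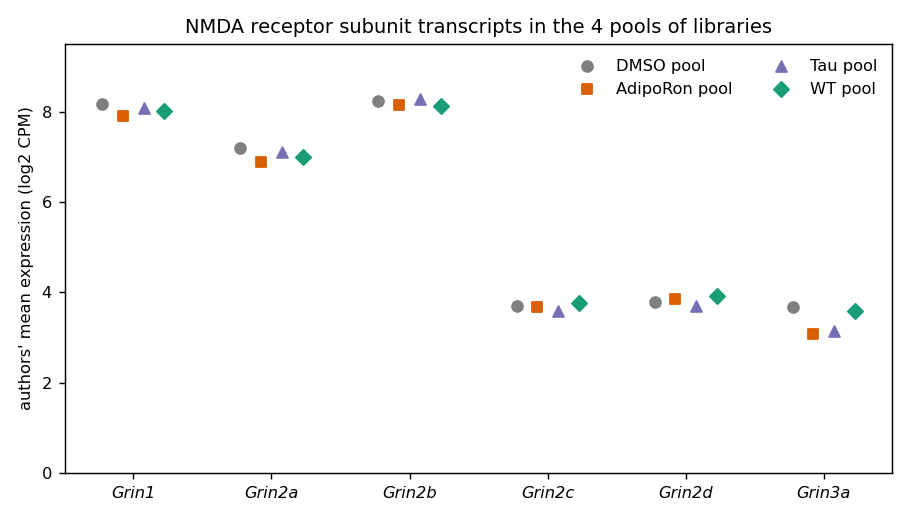
Levels of the 6 subunit genes (vertical axis, authors' mean log2 CPM, not corrected for gene length) in the DMSO, AdipoRon, Tau and WT pools, 1 point per pool and no error bars because each is a mean given by the authors. Grin1, Grin2a and Grin2b sat between 6.90 and 8.29 log2 CPM, while Grin2c, Grin2d and Grin3a sat between 3.08 and 3.93.

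Grin2b (chr6:135713221-136173615) encodes GluN2B, the slowly deactivating subunit of young forebrain synapses and of many extrasynaptic receptors. Its level was 8.25 log2 CPM with DMSO, 8.14 with AdipoRon, 8.29 in the Tau pool and 8.12 in the WT pool. It was the steadiest member across pools, with a range of 0.17 log2. The AdipoRon pool was 0.11 log2 below the DMSO pool, and 27.6% of all genes were as low. The Tau pool was 0.17 log2 above the WT pool, and 81.65% of all genes had a difference as low or lower. Of the 1350 genes within 1 log2 CPM of its level the share was 94.4%, which places Grin2b near the upper end of genes of its abundance.

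Grin2a (chr16:9567901-9996083) encodes GluN2A, the faster subunit that joins synaptic receptors as the forebrain matures. Its level was 7.19 log2 CPM with DMSO, 6.90 with AdipoRon, 7.11 in the Tau pool and 6.99 in the WT pool. The AdipoRon pool was 0.29 log2 or 18.4% lower than the DMSO pool, close to the difference of Grin1. In that comparison 12.8% of all genes were as low. In the Tau pool Grin2a was 0.12 log2 higher than in the WT pool, so the signs for Grin1, Grin2a and Grin2b were alike in both comparisons. Of the 3401 genes within 1 log2 CPM of the level of Grin2a, 91.0% were as low or lower between Tau and WT, a place much like that of Grin2b.

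The developmental pair was therefore weighted to Grin2b in every pool. Without length correction Grin2b exceeded Grin2a by 1.06 log2 with DMSO, 1.24 with AdipoRon, 1.18 in the Tau pool and 1.12 in the WT pool, or 2.08, 2.37, 2.26 and 2.18 times in CPM. The excess was 0.19 log2 larger with AdipoRon than with DMSO and 0.05 larger in Tau than in WT. Comparison of levels between genes needs their lengths, and the canonical Grin2b transcript of 24238 bases is longer than that of Grin2a at 14866 bases. Per kilobase of transcript the excess of Grin2b was 0.35 log2 with DMSO, 0.54 with AdipoRon, 0.47 in Tau and 0.42 in WT. Per kilobase of coding sequence, of 4446 and 4392 bases, it was 1.04, 1.23, 1.16 and 1.11. The direction was the same under the 3 choices, but the size of the excess depended on the length used. The shifts between pools are the same with any length.

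**Figure D2:**
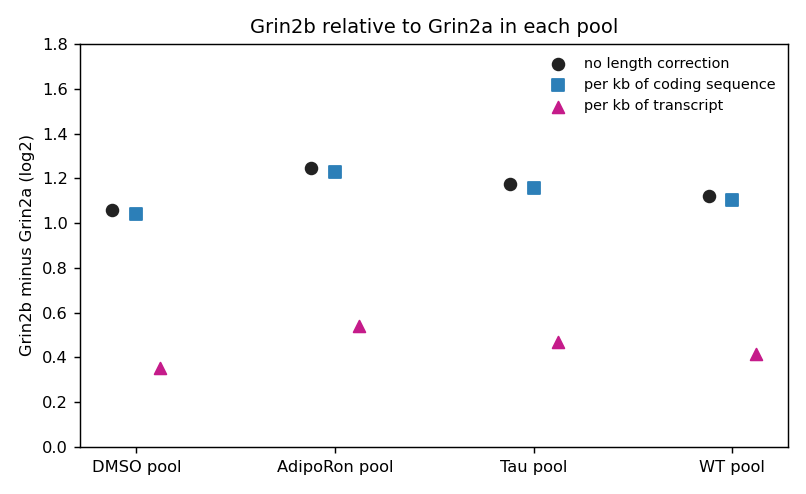
Difference between the levels of Grin2b and Grin2a (vertical axis, log2) in each pool, without length correction, per kilobase of coding sequence and per kilobase of transcript. Points above 0 mean more Grin2b, and the AdipoRon pool was highest at 1.24, 1.23 and 0.54.

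Grin2c (chr11:115249169-115267297) encodes GluN2C, a subunit with weak magnesium block that is best known from cerebellar granule cells and is also found in astrocytes. It was present at 3.70 log2 CPM with DMSO, 3.67 with AdipoRon, 3.58 in Tau and 3.77 in WT. Grin2d (chr7:45831883-45871194) encodes GluN2D, a slow subunit of early development and of interneurons. It stood at 3.78, 3.85, 3.69 and 3.93 log2 CPM in the same order of pools. Neither differed between AdipoRon and DMSO by as much as 0.1 log2, at -0.03 for Grin2c and 0.06 for Grin2d, and Grin2d was the only member with a value above 0. Both were lower in Tau than in WT, with differences of -0.19 and -0.24 log2, against the direction of Grin2a and Grin2b. Per kilobase of transcript, Grin2a and Grin2b together made up between 78.9% and 82.8% of the summed level of the 4 GluN2 genes, and Grin2c and Grin2d the rest. Per kilobase of coding sequence the pair made up between 92.4% and 94.0%, and between 93.3% and 94.8% without length correction.

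Grin3a (chr4:49661611-49846023) encodes GluN3A, a juvenile subunit that binds glycine, lowers calcium entry and limits the stabilization of young synapses. It differed between pools more than any other member. Its level was 3.68 log2 CPM with DMSO and 3.08 with AdipoRon, and 3.15 in Tau and 3.60 in WT. The AdipoRon pool was 0.60 log2 or 34.0% lower than the DMSO pool, a difference matched or exceeded downward by 937 genes, 4.76% of 19693. The Tau pool was 0.44 log2 or 26.4% lower than the WT pool, with 4.37% of 19890 genes and 6.08% of the 3749 genes near its level as low. Its level was between 8.46 and 12.8 CPM, where differences of other genes also scatter more widely, and the middle 95% of the 3762 genes near its level reached from -0.84 to 0.64 for AdipoRon. Grin3b, the other GluN3 gene and not among the 6, was lower still at 1.83 log2 CPM with DMSO and 1.27 with AdipoRon. Part of Grin3a, 3237 bases, overlaps Ppp3r2, a gene listed in none of the 4 tables.

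**Figure D3:**
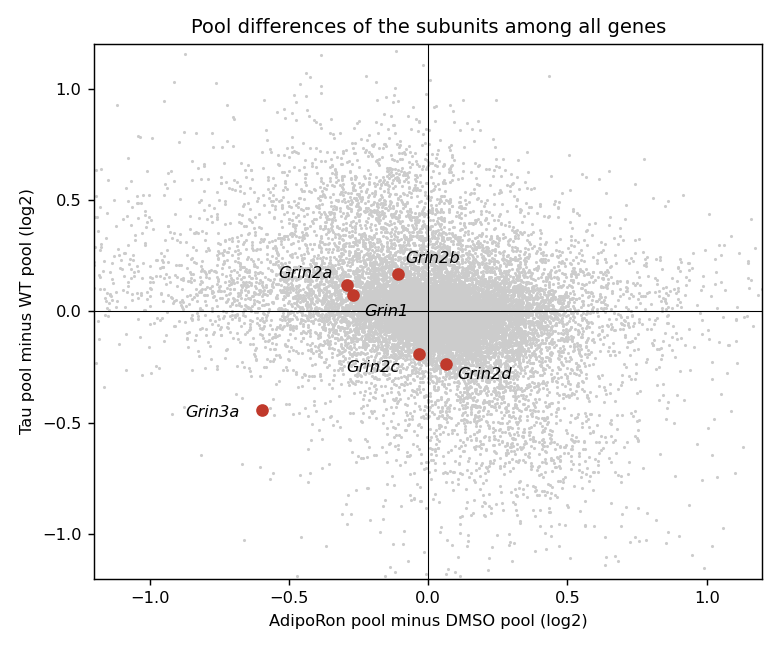
Each grey point is 1 of 19399 genes by its difference between the AdipoRon and DMSO pools (horizontal axis, log2) and between the Tau and WT pools (vertical axis, log2), with the 6 subunit genes in red and 353 genes outside the frame of 1.2 log2. Grin1, Grin2a and Grin2b lie at the upper left, and Grin3a lies at the lower left at -0.60 and -0.44.

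Counted as a group, 5 of the 6 subunit genes were below 0 in the AdipoRon pool, as were 45.0% of all genes, with a median of -0.19 log2 against 0.02 for all genes. By size, 1 of the 6, Grin3a, was lower by 0.3 log2 or more, a cutoff that 12.5% of all genes passed downward, and 0 were higher, against 12.2% of all genes upward. Between Tau and WT, 3 of the 6 were below 0, as were 49.3% of all genes, and the median was -0.06 against 0.00. Again Grin3a alone was lower by the cutoff, against 7.1% of all genes, and 0 members were higher, against 10.2%. At a cutoff of 0.5 it was no longer counted and 0 members were lower. Among genes at 1 log2 CPM or more in both tables, a level all 6 members passed, the all-gene counts turned from 1413 lower and 2021 higher to 880 lower and 248 higher. The summed level of the 6 genes was 778.8 CPM with DMSO and 676.9 with AdipoRon, 13.1% lower. It was 756.7 CPM in Tau, 7.39% higher than the 704.7 in WT. The sum has no length correction and is mostly Grin1, Grin2a and Grin2b. Grin2c, Grin2d and Grin3a were 12.3%, 15.1% and 26.4% lower in Tau.

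Per kilobase of transcript and averaged over the 4 pools, the order of the levels was Grin1 at 5.94 log2, Grin2b at 3.60, Grin2a at 3.15, Grin2d at 1.37, Grin2c at 1.26 and Grin3a at 0.43. Without length correction Grin2b stood above Grin1, at 8.20 against 8.05 log2 CPM. Grin2d and Grin2c were neighbors whose levels per kilobase of transcript were 1.34 and 1.28 with DMSO, and their order in that pool turned per kilobase of coding sequence, at 1.79 and 1.81. Grin3a was above both in the DMSO pool on the coding scale, at 1.94, so in that pool the order of these 3 low genes rests on the length chosen. Their order by the mean of the 4 pools was the same with either length.

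The markers of the label were present. The 6 neuronal markers, among them Map2 and Snap25, summed to 3155.7 CPM with DMSO and 2689.2 with AdipoRon. All 6 were below 0 in the AdipoRon pool, as were 45.0% of all genes. They lay between -0.29 and -0.13 log2 with a median of -0.18, and the values of Grin1 and Grin2a lie at the lower end of that range. In Tau the 6 were above WT, at 3065.1 against 2798.7 CPM, and the 6 excitatory markers had a median difference of 0.32 log2. Astrocyte markers were also abundant, at 3898.2 CPM with DMSO and 4273.1 with AdipoRon. The sum leans on Gfap, the most abundant of them, which differed by 0.34 log2. The median of the 6 with AdipoRon was 0.14, and 2 of 6, Slc1a3 and Aqp4, were below 0 at -0.24 and -0.23. Microglial markers were lower in Tau in 6 of 6 genes, at 149.2 CPM against 304.9 in WT. Oligodendrocyte lineage markers were lower by 0.3 log2 or more in 6 of 8, at 671.8 against 1021.0, while Mobp was higher by 1.15. Between Tau and WT, 49.3% of all genes were below 0 and 7.1% were lower by 0.3 log2 or more. Astrocyte markers had a median of 0.03, with 2 of 6 below 0. With AdipoRon, the medians were -0.23 log2 for excitatory, -0.25 for inhibitory and -0.28 for oligodendrocyte lineage markers, and 0.04 for microglial markers. Inhibitory markers had a median of -0.01 between Tau and WT. Of 6 endothelial and fibroblast markers, Cldn5 was in none of the tables and the other 5 summed to 27.7 CPM with DMSO, with medians of -0.03 for AdipoRon and 0.34 for Tau. The Tau median mixes 2 cell types. The endothelial genes Pecam1 and Flt1 differed by -0.04 and -0.58, and the fibroblast genes Col1a1, Dcn and Lum by 0.34, 0.85 and 0.57. By sign alone, Grin2c, Grin2d and Grin3a, lower in Tau, went with the microglial, oligodendrocyte and inhibitory medians. Grin1, Grin2a and Grin2b went with the medians of the general neuron, excitatory and astrocyte lists. They also went with the fibroblast genes, but not with the endothelial genes of the same list. The inhibitory and astrocyte medians were close to the all-gene median of 0.00, so their signs carry little. The part of the cell makeup in these differences was not tested. Fewer cells of a type and less RNA per cell cannot be told apart in bulk RNA.

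The genes that work with the receptor were read from 4 lists of 54 genes in all. Among the 16 genes of the scaffold list, not all of which anchor the receptor itself, 15 were below 0 with AdipoRon. By size, 12 were lower by 0.3 log2 or more, with a median of -0.43. The shares of all genes were 45.0% and 12.5%. The lists were chosen with earlier results of these data known, so these counts are no independent support. The 6 neuronal markers were also all below 0, with a median of -0.18. Shank1, a large scaffold of the postsynaptic density, was the lowest at -0.80, with 8.64 log2 CPM in the DMSO pool and 7.83 in the AdipoRon pool. Dlg4, which encodes PSD-95, the binding partner of the GluN2 tails, was the most abundant at 8.50 and 8.42 log2 CPM, and its difference of -0.08 was the smallest downward. Homer3 was the exception, at 0.47. Between Tau and WT 0 of the 16 passed the cutoff in either direction, against 7.1% of all genes downward and 10.2% upward. The upward share came mostly from low genes, since 248 of 2021 higher genes were at 1 log2 CPM or more in both tables. The median was 0.11.

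Of 9 genes that supply or clear agonist and co-agonist, 4 were lower by the cutoff and 0 were higher with AdipoRon, against 12.5% and 12.2% of all genes, the shares that also apply to the other lists. Slc6a9, the glycine transporter GlyT1, was lowest at -0.39, and the glutamate transporter gene Slc1a3 was the most abundant, with a difference of -0.24. Dao, which encodes the enzyme that degrades D-serine, was the highest at 0.18 but near the bottom of the tables, at -1.86 log2 CPM with DMSO. Of 19 kinases, phosphatases and signaling partners, 1 was lower and 2 were higher, with a median of 0.01. Ptpn5, the phosphatase STEP that dephosphorylates GluN2B, was lower at -0.89. Nos1, the neuronal nitric oxide synthase tethered to the receptor by PSD-95, was the highest at 1.96, with 4.26 log2 CPM in the DMSO pool and 6.22 in the AdipoRon pool. Camk2a, which binds GluN2B, was the most abundant and differed by -0.15. Of 10 genes listed under transport and subunit switch, 3 were lower and 0 were higher. Lin7a, part of the complex that links GluN2B to its motor, was lowest at -1.09, and Grina was highest at 0.16. In the Tau and WT pools the medians of these 3 lists lay between -0.00 and 0.08. The tyrosine kinase gene Fyn was lower in Tau, at -0.52, and Camk2a at 0.305, Ptpn5 at 0.31, Dao at 0.66 and Kif17, the motor that carries GluN2B, at 0.36 were higher. These 5 genes were the ones of the 3 lists past the cutoff, which 7.1% of all genes passed downward and 10.2% upward between Tau and WT. At 1 log2 CPM or more in both tables, a level Dao did not reach, 880 genes were lower and 248 higher. The upward share is therefore no measure for genes at the levels of Camk2a, Ptpn5 and Kif17. Fyn and Kif17 were named after their values were seen.

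**Figure D4:**
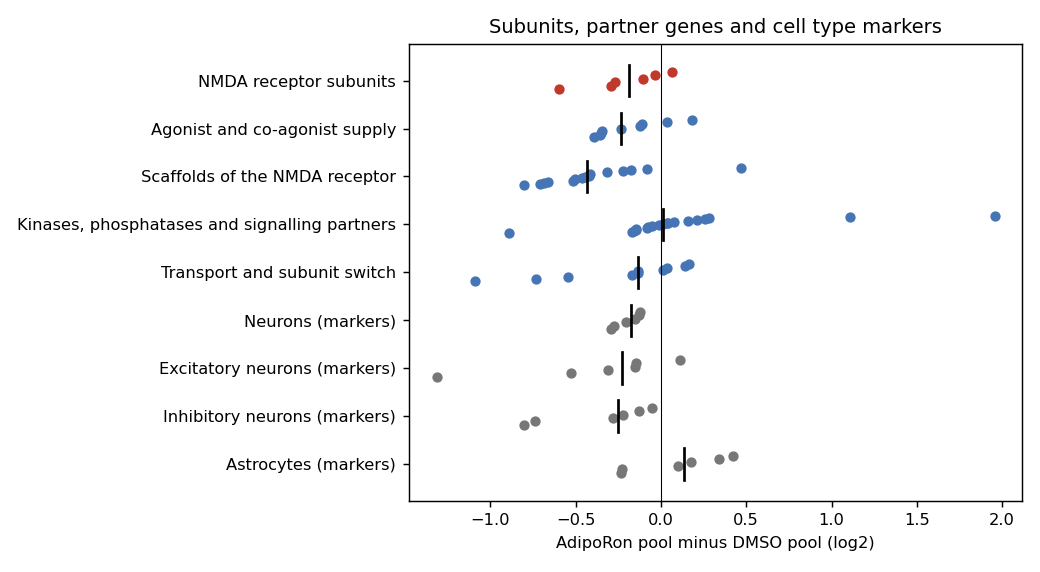
Difference between the AdipoRon and DMSO pools (horizontal axis, log2) for the subunits (red), 4 lists of partner genes (blue) and 4 lists of cell type markers (grey), 1 point per gene, with a bar at each median. The scaffold genes have a median of -0.43 and the subunits a median of -0.19, and Nos1 is the point at 1.96.

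Likeness of pattern was measured over the 4 pools as the distance between 2 genes after each was centered on its own mean, for the 9424 genes at 4 log2 CPM or more. The closest to Grin1 were Sema7a, Ttpal and ATP6, at distances of 0.0046, 0.0053 and 0.0065 log2. The closest to Grin2a were Slc8a2, Ttl and Pdpk1, at 0.0030, 0.0057 and 0.0071. Those closest to Grin2b were Herpud1, Mbnl2 and Eef1a2, at 0.0115, 0.0123 and 0.0134. At a wider limit of 0.1 log2, 776 of the 9424 genes lay near Grin1, 563 near Grin2a and 810 near Grin2b. Grin2a was the 71st closest gene to Grin1, while Grin2b lay farther from both, at 0.133 from Grin1 and 0.136 from Grin2a. The 4 pools overlap, so these distances rest on few independent values.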

How the data were processed

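Polyadenylated RNA of 21 libraries was sequenced. The deposited tables, 1 for each of the 4 pairwise comparisons, held the authors' log2 CPM, which edgeR averages over the libraries of a comparison. Per the labels and methods, the authors aligned reads to mm10 with STAR and quantified them with RSEM, which divides reads shared by several genes, whereas the table names refer to Rsubread, so the counter is uncertain. Versions were not given in the sources used here. The other columns hold the authors' own fold changes, likelihood ratios, p-values and false discovery rates and were not used. Descriptions of WT samples name other tables than their group implies, so the table names were followed, which the descriptions of the Tau samples match for the DMSO, AdipoRon and Tau tables. For 19399 genes the DMSO and AdipoRon levels summed to the Tau and WT levels within a median of -0.0041 log2 (quartiles -0.0166 and 0.0048), a check that cannot detect an exchange of the tables within either pair.

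Pools were subtracted gene by gene in Python 3.11.15 with numpy 2.4.6 and pandas 2.3.3, with no pseudocount, and the script was tested on simulated data. With 0 libraries carrying values of their own, no model was fitted. The study used neurons of the same animal in each treatment. Partner genes were named as the most abundant, lowest and highest of each list. Members and lists were chosen with earlier results of these data known. Positions came from RefSeq on GRCm38.p6 and lengths from GENCODE M39. Some shared sequence stretches are not reported here.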

Additional observations from a re-analysis of the deposited data

How the results depend on the processing

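The 36 differences of single subunits recomputed under other settings moved by less than 0.1 log2 and none changed sign. This followed from the settings, since rescaling or centering shifted all genes alike by 0.024 log2 at most. The level minimum left the value of each retained gene unchanged. It therefore does not measure how steady the subunit differences are. Counts depended on the size required. With AdipoRon, 2 subunits were lower after centering and 3 at a cutoff of 0.2. At least 1 log2 CPM in both tables left 1266 genes lower and 1588 higher, a cutoff of 0.2 gave 4046 higher, and 0.5 gave 1259 lower and 859 higher. Between Tau and WT, the same level minimum left 880 genes lower and 248 higher. A cutoff of 0.2 gave 2266 lower, 3135 higher and 2 subunits lower, and 0.5 gave 699, 839 and 0. The excess of Grin2b over Grin2a in the DMSO, AdipoRon, Tau and WT pools was 1.04, 1.23, 1.16 and 1.11 log2 per coding length and 1.06, 1.24, 1.18 and 1.12 without length correction. Without length correction 1 pair of subunits changed order, and coding length, an alternative chosen after seeing the data, kept the mean order.

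No paired analysis was possible because the values used are means over libraries, and leaving out single libraries was not run for the same reason. The values used carry neither the depth of single libraries nor the replicate spread, so none of the differences can be set against the spread between cultures.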

Other observations

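Among partner genes chosen after their values were seen, Rasgrf2, an exchange factor that links the receptor to Ras signaling, stood at 5.64 log2 CPM in the DMSO pool and 6.75 in the AdipoRon pool, a difference of 1.11. Homer1 and Homer2, scaffolds that couple Shank proteins to other receptors, differed by -0.69 and -0.71, against 0.47 for Homer3. Lin7b differed by -0.74 and Lin7c by 0.14. Reln, which encodes an extracellular protein known to affect the exchange of GluN2B for GluN2A, differed by -0.55, from 5.20 to 4.66 log2 CPM.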
